A study of Saccharomyces cerevisiae W303 with 24 samples.

Results

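The hexose transporter genes *HXT1*, *HXT2*, *HXT3*, *HXT4*, *HXT5*, *HXT6*, *HXT7*, *HXT8*, *HXT10* and *HXT17* of budding yeast were followed across 24 strains that carry an extra chromosome. They are 10 of the 6176 nuclear open reading frames with a probe on the arrays, and they were found by their systematic names, from YHR094C for *HXT1* to YNR072W for *HXT17*. Each had 1 probe, printed in 2 spots. The genes were selected on their log2 mRNA ratios over the reference on these same arrays, above all those of *HXT6* and *HXT7* in the disomes, so their ratios against the reference and between genotypes are given here as a description, without a test.

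The RNA of 2 sets of 12 haploid strains of the W303 background was hybridised. The disomes-*ubp6Δ* lack *UBP6*, which encodes a deubiquitinating enzyme bound to the proteasome, and carry a second copy of a single chromosome, each strain of a different one, with every chromosome covered except III, IV, VI and VII. The disomes carry the same extra chromosomes with *UBP6* intact. Cells were grown in rich medium (YEPD) at 30°C with the age given as day 1, and each strain was set on 1 dual-colour array against a reference RNA labelled wild-type, so a single strain has no replicate and the 12 strains of a set are the replicates for what they share. The study's strain list, which is headed by its mass spectrometry and does not name the strains put on arrays, gives disomes whose 2 chromosome copies are held by *HIS3* and KanMX6 markers, and *ubp6Δ* derivatives in which CaURA3 replaces *UBP6*.

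Glucose enters yeast by facilitated diffusion through the Hxt proteins, which span the plasma membrane and differ in affinity. *HXT1* and *HXT3* encode carriers of low affinity that work when glucose is plentiful, *HXT2*, *HXT4*, *HXT6* and *HXT7* encode carriers of moderate to high affinity that are used when glucose is scarce, and *HXT5* encodes a carrier known from slowly growing and starved cells. The sensors Snf3 and Rgt2 relieve repression of *HXT* genes by Rgt1 with its partners Mth1 and Std1, and ample glucose represses the high-affinity genes through Mig1, which the kinase Snf1 counteracts. *HXT8*, *HXT10* and *HXT17* are expressed at low levels in glucose medium, and less is known of their proteins.

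Between 5837 and 6081 genes were measured on the arrays of the disomes-*ubp6Δ* and between 5288 and 6132 on those of the disomes. The median Cy5 intensity of an array was 817 to 1256 for the disomes-*ubp6Δ* and 729 to 2359 for the disomes. The labels place the strain in Cy5 on all arrays. The arrays of the disomes-*ubp6Δ* run the other way in the data, since the deposited value table correlated with Cy5 over Cy3 at -0.999 to -0.986 there against 0.956 to 0.999 for the disomes, and their ratios were turned. After this step the labelled extra chromosome ranked first of all 16 by mean ratio on 12 of 12 arrays of each set. The *UBP6* intensity was 24.2 to 268 in the disomes-*ubp6Δ* and 12.9 to 65.1 in the reference RNA of the same arrays, and the disomes had 1235 to 3924, with 1842 to 4474 in their reference RNA. The reference hybridised with the disomes-*ubp6Δ* thus had low *UBP6* signal too, although the label reads wild-type. The effect of *UBP6* loss, the dye and the reference RNA cannot be told apart in any difference between the sets. Arrays lay on 4 slides. Slide 1 held disomes I to XII, slide 2 held disomes XIII, XIV and XV, slide 3 held disome XVI with the *ubp6Δ* derivatives of disomes I, II, V and VIII, and slide 4 held the other 8 derivatives. On slide 1 the spots of a pair differed by a median of 0.31 to 0.63 in log2 signal, against 0.08 to 0.18 on the other slides, whereas the median difference in log2 ratio was at most 0.11 on every slide.

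Ratios are given as log2 of strain over reference RNA, so that 0 is the level of the reference. A gene's value in the strain that carries an extra copy of it is left out of the means and treated separately further on.

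**Figure D1:**
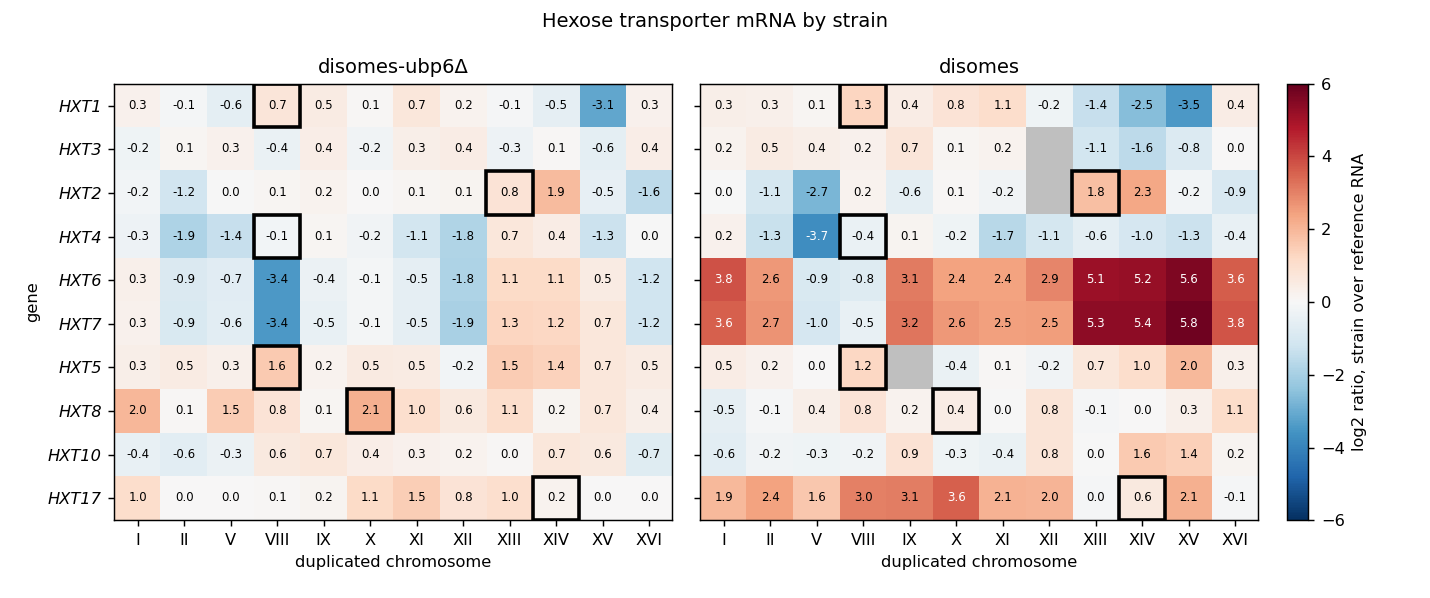
Log2 ratio of strain over reference RNA for the 10 hexose transporter genes (down) in each strain, named by its duplicated chromosome (across), with the disomes-*ubp6Δ* at left and the disomes at right. Thick frames mark strains in which the gene itself is duplicated and grey marks values not measured; *HXT6* and *HXT7* lie above 2 in 10 of 12 disomes and in none of the disomes-*ubp6Δ*.

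*HXT7* and *HXT6*, which encode carriers of high affinity, had the widest range of all members. The log2 ratio of *HXT7* in the disomes-*ubp6Δ* was lowest in VIII at -3.44, had a median of -0.50 and was highest in XIII at 1.30. In the disomes it was lowest in V at -1.0, had a median of 2.96 and was highest in XV at 5.83, a 57.0-fold level. The mean was -0.48 ± 1.34 in the disomes-*ubp6Δ*, a 0.718-fold level, and 2.99 ± 2.11 in the disomes, a 7.96-fold level (SD, n = 12 each). *HXT6* followed it closely, with a mean of -0.50 ± 1.29 in the disomes-*ubp6Δ* and 2.93 ± 2.08 in the disomes (SD, n = 12 each). The ratios of *HXT7* and *HXT6* lay within -0.44 to 0.30 of each other on all 24 arrays. These neighbouring genes on chromosome IV have nearly identical coding sequences, so their probes may read both transcripts and they are best taken as 1 measurement.

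Within each pair of strains with the same extra chromosome, the log2 ratio of *HXT7* was lower in the disome-*ubp6Δ* in 11 of 12 pairs. Each ratio is over the reference RNA of its own array. The signal of the strain RNA alone ran the other way, with a mean log2 level higher by 1.17 in the disomes-*ubp6Δ*, as described below. The difference in log2 ratio averaged -3.47 ± 1.43 (SD, n = 12 pairs) and reached -5.16 for chromosome XV, and the exception was chromosome V, at 0.36. The ranges of the sets overlapped only through disomes V and VIII, which had log2 ratios of -1.0 and -0.46. Chromosome VIII was also where the disome-*ubp6Δ* was lowest, at -3.44, a 10.9-fold lower level.

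The strains held much of the same order in both sets. Among the disomes, XV, XIV and XIII had *HXT7* log2 ratios of 5.83, 5.36 and 5.34, XVI, I and IX had 3.77, 3.56 and 3.22, II, X, XII and XI had 2.71, 2.62, 2.50 and 2.46, and VIII and V had -0.46 and -1.0. Neighbours such as XIV and XIII, or X, XII and XI, differed by less than the 0.22 between the spots of *HXT7* in disome IX. That was the least even array without an outlier spot of the gene. The value of disome XII rests on 1 spot, since the other was an outlier. In the disomes-*ubp6Δ* the highest 3 strains were again XIII, XIV and XV, with 1.30, 1.23 and 0.67, and these 3 shared slide 4 with 5 other strains that ranged from -1.95 to -0.11. Over the 12 pairs the correlation of *HXT7* between the sets was 0.74 (Spearman's rho 0.69), and 0.79 without chromosomes V and VIII. Of 5654 genes, 11.8% had a higher Pearson correlation between the sets and the median gene had 0.32. The disomes' slides are partly in the order of the chromosomes, and over the 8 chromosomes of slide 1 the correlation was 0.56.

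The signal of each RNA is given beside the ratios, and which RNA the difference between the sets came from was not tested. Levels are log2 of the processed signal over the median of its dye on that array. In the strain RNA, the level of *HXT7* was 1.21 at the lowest, 4.22 at the median and 5.72 at the highest in the disomes-*ubp6Δ*, and -1.17, 3.39 and 4.32 in the disomes. In the reference RNA, it ran between 4.30 and 4.83 for the disomes-*ubp6Δ* (mean 4.58 ± 0.15, SD, n = 12) and between -2.06 and 1.02 for the disomes (mean -0.08 ± 1.23, SD, n = 12). The reference levels of the sets did not overlap, and the strain levels did. The mean reference level was higher by 4.65 on the arrays of the disomes-*ubp6Δ*, whereas the mean strain level was higher by 1.17 in the disomes-*ubp6Δ*. For *HXT6* these shifts were 5.28 in the reference RNA and 1.84 in the strains.

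**Figure D2:**
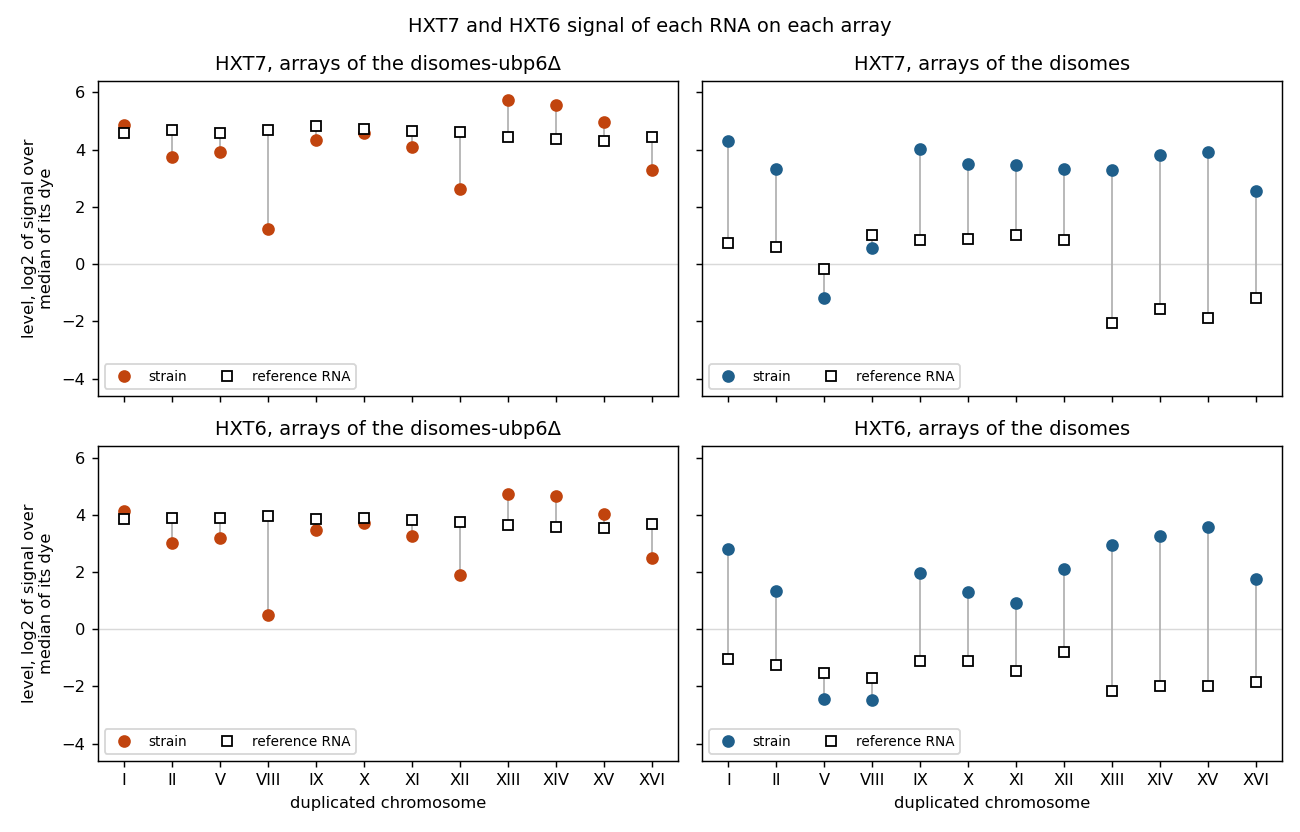
Level of *HXT7* (upper row) and *HXT6* (lower row) on each array, as log2 of the processed signal over the median of its dye, with arrays of the disomes-*ubp6Δ* at left and of the disomes at right, by duplicated chromosome. Filled circles are the strain, open squares the reference RNA and the line between them is the log2 ratio; the *HXT7* squares sit at 4.30 to 4.83 at left and at -2.06 to 1.02 at right.

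Levels of a gene compared across the sets carry the dye and the hybridisation as well, and over all 6176 genes the reference level shifted between the sets by a median of 0.95 in either direction. The reference shifts of *HXT6* and *HXT7* were the 3rd and 4th highest of these genes, and 95% of genes lay between -2.56 and 2.80. For most members the strain and the reference shifted together. *HXT1* shifted by 1.87 in the strains and 1.75 in the reference RNA, *HXT3* by 1.88 and 1.76, and *HXT2* by 2.57 and 2.42. *HXT6*, *HXT7* and *HXT17* were the members in which the reference shifted by over 1 more than the strains, and for *HXT17* the reference was not, or only partly, above background on the 8 disome arrays of slide 1.

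By dye, the levels of *HXT7* were as follows. In Cy3, it had 1.21 to 5.72 in the disomes-*ubp6Δ* and -2.06 to 1.02 in the reference RNA of the disome arrays. In Cy5, the disomes had -1.17 to 4.32, against 4.30 to 4.83 for the reference RNA of the arrays of the disomes-*ubp6Δ*. Slide 3 held both sets, and there the reference level of *HXT7* lay between 4.59 and 4.68 on the 4 *ubp6Δ* arrays and -1.18 on the array of disome XVI. Among disome arrays the reference level was -0.17 to 1.02 on slide 1 and -2.06 to -1.55 on slide 2, and the mean log2 ratio was 1.95 ± 1.70 on slide 1 (n = 8) and 5.51 ± 0.28 on slide 2 (n = 3). For *HXT6* the reference level was -1.71 to -0.81 on slide 1 and -2.16 to -1.97 on slide 2, a smaller step. The reference spots of *HXT7* differed by up to 1.67 in log2 signal on slide 1, in disome V. The strain levels of *HXT7* on these slides, -1.17 to 4.32 and 3.28 to 3.92, overlapped.

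**Figure D3:**
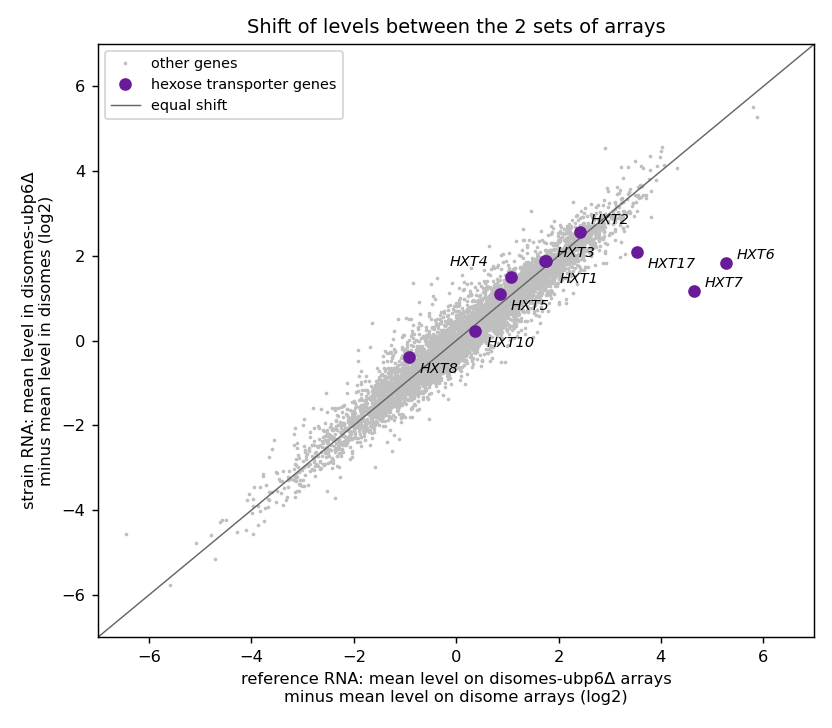
Difference in mean level between the arrays of the disomes-*ubp6Δ* and those of the disomes, in log2 units, for the reference RNA (across) and the strain RNA (up), for all genes (grey) and the hexose transporter genes (purple). On the diagonal the log2 ratio is the same in both sets; *HXT6* and *HXT7* lie far to the right of it, at reference shifts of 5.28 and 4.65.

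*HXT1* and *HXT3*, for the carriers of low affinity, were close to the reference in most strains and low in a few. The log2 ratio of *HXT1* in the disomes-*ubp6Δ* was -3.10 at the lowest, 0.05 at the median and 0.69 at the highest, with a mean of -0.23 ± 1.03 (SD, n = 11). In the disomes it was -3.47, 0.32 and 1.05, with a mean of -0.38 ± 1.46 (SD, n = 11). The lowest strain was XV and the highest was XI in both sets, and *HXT1* in strain XV was 8.60-fold lower with *UBP6* deleted and 11.1-fold lower with *UBP6*, each relative to its reference. Without the disome-*ubp6Δ* XV the mean of the disomes-*ubp6Δ* was 0.06, of the opposite sign. Over 11 pairs the Pearson correlation between the sets was 0.82, and 0.44 without chromosomes XV and XIV.

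*HXT3* varied less. Its log2 ratio was -0.57, 0.10 and 0.44 at the lowest, median and highest in the disomes-*ubp6Δ* (mean 0.03 ± 0.35, SD, n = 12) and -1.58, 0.19 and 0.71 in the disomes (mean -0.11 ± 0.73, SD, n = 11). In disome XII both spots of *HXT3*, and both of *HXT2*, were outliers and gave no value. The sign of both means changed when single strains were left out. The lowest disomes for *HXT3* were XIV, XIII and XV, which are also the lowest for *HXT1*, with -2.54, -1.37 and -3.47, and the highest for *HXT7*. In the disomes-*ubp6Δ*, *HXT1* was lowest in XV, followed by V at -0.58 and XIV at -0.53, while *HXT3* was -0.57 in XV, -0.28 in XIII and 0.08 in XIV.

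*HXT1* and *HXT7* ran in opposite directions across the disomes, though not within slide 1. Across 11 disomes their correlation was -0.67 (Spearman's rho -0.56). It was -0.37 without XV and XIV and 0.26 over the 7 disomes of slide 1. In the disomes-*ubp6Δ* it was -0.39, -0.51 without XV and V, and -0.45 over the 8 arrays of slide 4. The mean of *HXT1* was 0.40 ± 0.43 on slide 1 (n = 7) and -2.46 ± 1.05 on slide 2 (n = 3), and that of *HXT3* was 0.33 ± 0.21 (n = 7) and -1.17 ± 0.38 (n = 3). In the disomes the slide and the identity of chromosomes XIII, XIV and XV cannot be told apart.

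*HXT2* and *HXT4*, for the other carriers used at low glucose, did not share the high ratios of *HXT6* and *HXT7*. The log2 ratio of *HXT2* was -1.57, 0.03 and 1.89 at the lowest, median and highest in the disomes-*ubp6Δ* (mean -0.08 ± 0.88, SD, n = 11), and -2.75, -0.18 and 2.30 in the disomes (mean -0.31 ± 1.26, SD, n = 10). Strain XIV was highest in both sets, at 1.89 and 2.30, and strains II and XVI were low in both, at -1.15 and -1.57 in the disomes-*ubp6Δ* and at -1.06 and -0.95 in the disomes. Chromosome V separated the sets, with -0.01 in the disome-*ubp6Δ* and -2.75 in the disome.

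*HXT4* was the member most often below the reference. Its log2 ratio was -1.85, -0.32 and 0.69 at the lowest, median and highest in the disomes-*ubp6Δ* (mean -0.61 ± 0.91, SD, n = 11), and -3.70, -0.99 and 0.24 in the disomes (mean -0.99 ± 1.09, SD, n = 11). It was below 0 in 8 of 11 disomes-*ubp6Δ* and 9 of 11 disomes, and below -1 in 5 of 11 in each. Strains II, V, XI, XII and XV were below -1 in both sets, less surely so for disomes XI and XII. In disome XI the strain signal was only partly above background. In disome XII, at -1.06, the spots differed by 0.64 in log2 ratio. The disome V value of -3.70, a 13.0-fold lower level, was the lowest ratio of any member on any array, and *HXT2*, *HXT6* and *HXT7* were below the reference in that strain too, at -2.75, -0.93 and -1.0. *HXT4* went with *HXT7* across the disomes of slide 1 (r = 0.93, n = 7) and less across all 11 disomes (r = 0.61, and -0.02 without V and I). In the disomes-*ubp6Δ* the correlation was 0.62 over 11 strains.

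**Figure D4:**
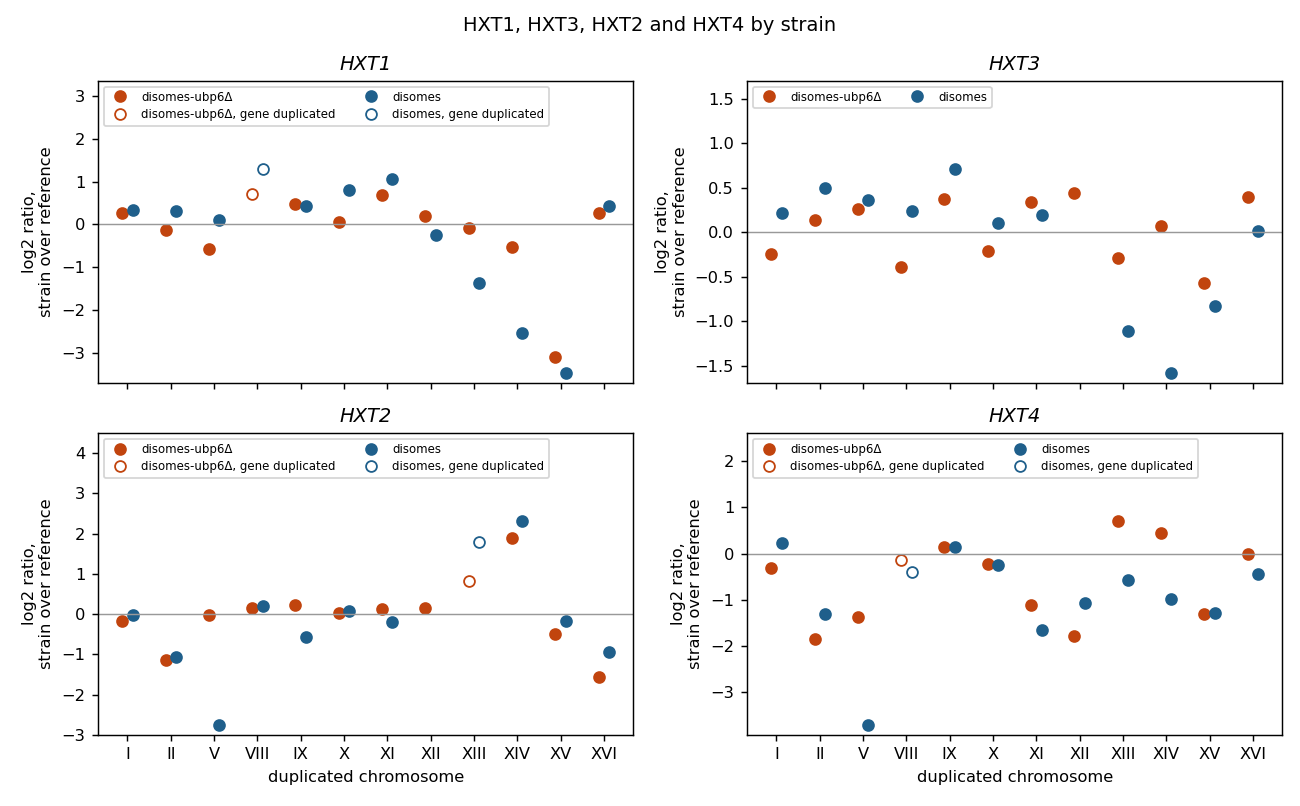
Log2 ratio of strain over reference RNA for *HXT1*, *HXT3*, *HXT2* and *HXT4* by duplicated chromosome, with the disomes-*ubp6Δ* as the left point and the disomes as the right point of each pair, and open circles where the gene itself is duplicated. *HXT1* was lowest in strain XV and *HXT2* highest in strain XIV in both sets, and the scales differ between panels.

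The spread between strains was among the largest of the arrays for *HXT1*, *HXT2* and *HXT4*, and less so for *HXT3*. In the disomes-*ubp6Δ*, 0.825%, 38.8%, 2.00% and 1.65% of genes had a larger SD than *HXT1*, *HXT3*, *HXT2* and *HXT4*, and in the disomes 0.157%, 5.14%, 0.470% and 0.871% did. No gene had a larger SD across the disomes than *HXT7*. The median gene had an SD of 0.31 in the disomes-*ubp6Δ* and 0.28 in the disomes. The members were selected on these same ratios, so their place among all genes is a description only. Spread between strains also holds the spread between slides. On slide 1 alone the SD of *HXT1*, *HXT3*, *HXT2* and *HXT4* was 0.43, 0.21, 1.03 and 1.37, against 1.46, 0.73, 1.26 and 1.09 over all disomes.

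*HXT5*, for the carrier of slow growth and starvation, was mostly above the reference by a small amount. Its log2 ratio was -0.18, 0.48 and 1.54 at the lowest, median and highest in the disomes-*ubp6Δ* (mean 0.57 ± 0.49, SD, n = 11) and -0.41, 0.27 and 1.95 in the disomes (mean 0.41 ± 0.68, SD, n = 10). It was above 0 in 10 of 11 disomes-*ubp6Δ* and 8 of 10 disomes. Strains XIII, XIV and XV were the highest in both sets, with 1.54, 1.37 and 0.69 in the disomes-*ubp6Δ* and 0.66, 1.05 and 1.95 in the disomes. The correlation of *HXT5* with *HXT7* was 0.86 in the disomes-*ubp6Δ* (Spearman's rho 0.75, n = 11) and 0.71 in the disomes (Spearman's rho 0.88, n = 10), and 0.71 and 0.88 without the 2 farthest strains. It was 0.92 over the 8 arrays of slide 4 and 0.18 over 6 arrays of slide 1, where *HXT5* was dim. Of the 12 disome arrays, 2 had no *HXT5* spot well above background in the strain and 2 had none in the reference, and disome IX, with none in either, gave no ratio.

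*HXT8*, *HXT10* and *HXT17* were dim on part of the arrays. *HXT8* had a mean log2 ratio of 0.77 ± 0.60 in the disomes-*ubp6Δ* (SD, n = 11), above 0 in 11 of 11 strains, and 0.26 ± 0.48 in the disomes (SD, n = 11), above 0 in 7 of 11. Its reference level was -7.15 to -6.06 on slide 3 and -4.64 to -3.76 on slide 4 among the arrays of the disomes-*ubp6Δ*, and the reference was not well above background on 3 of the 12. With another background correction (normexp and loess) the means of *HXT8* were 0.30 in the disomes-*ubp6Δ* and 0.13 in the disomes. In the authors' value table they were 0.51 (n = 8) and 0.21 (n = 9). *HXT10* had a mean of 0.11 ± 0.52 in the disomes-*ubp6Δ* and 0.23 ± 0.74 in the disomes (SD, n = 12 each), with the highest values in disomes XIV and XV, at 1.55 and 1.45. Its reference level was -6.36 to -6.25 on slide 2, which held these disomes, and -3.29 to -1.96 on slide 1.

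The log2 ratio of *HXT17* was 0.03, 0.15 and 1.46 at the lowest, median and highest in the disomes-*ubp6Δ* (mean 0.53 ± 0.56, SD, n = 11) and -0.07, 2.08 and 3.60 in the disomes (mean 1.98 ± 1.16, SD, n = 11). With another background correction (normexp and loess) the means were 0.46 in the disomes-*ubp6Δ* and 0.49 in the disomes. All 8 disomes of slide 1 lay above 1, at 1.64 to 3.60, and among the later arrays disomes XIII, XV and XVI had -0.05, 2.15 and -0.07. On slide 1 the reference spots of *HXT17* were not well above background on 5 arrays and only partly on 3, so these 8 ratios were kept for the strain signal and set it against a reference that was not or only partly measured. The spots of a pair there differed by up to 2.33 in log2 ratio. In the authors' value table, 6 disomes had a value and averaged 1.08. In the disomes-*ubp6Δ* the reference level of *HXT17* was -4.13 to -3.58 on slide 3 and -0.91 to -0.51 on slide 4.

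Of the members, 6 lie on chromosomes that are duplicated in a strain of each set. Genes on a duplicated chromosome had a median response of 0.91 over 4115 genes, where the response is the log2 ratio of the strain with the extra copy minus the mean of the other strains, averaged over both sets. *HXT5* on chromosome VIII had a response of 1.02 in the disomes-*ubp6Δ* and 0.83 in the disomes, and *HXT1* on the same chromosome had 0.94 and 1.66. *HXT2* on chromosome XIII had 0.91 and 2.10, and *HXT4* on chromosome VIII had 0.47 and 0.59. *HXT8* on chromosome X had 1.38 and 0.16. The mean response of *HXT5* was 0.91, and 0.40 with normexp (two-sided exact permutation p = 0.455), and that of *HXT8* was 0.77, 0.40 with normexp and 0.39 without the background filter (exact permutation p = 0.417). *HXT17* on chromosome XIV had -0.32 and -1.42, while 90% of the chromosome's 384 genes responded by 0.09 to 1.38. The other disomes behind this value are mostly the slide 1 arrays with an unmeasured reference, and the mean response of -0.87 was -0.12 with normexp (exact permutation p = 0.833) and -0.33 in the value table. The other strains' spread was wide for *HXT1*, *HXT2* and *HXT4*, with an SD of 1.19, 0.99 and 0.88, beside mean responses of 1.30, 1.51 and 0.53. A two-sided exact permutation test over the strains gave p = 0.25, 0.182, 0.917, 0.0909, 0.0833 and 0.25 for *HXT1*, *HXT2*, *HXT4*, *HXT5*, *HXT8* and *HXT17* (10 or 11 other strains). After Benjamini-Hochberg adjustment over the 6 genes, p was 0.27 or more. The smallest p that 12 strains allow is 0.0833 and that of 11 is 0.0909, where *HXT8* and *HXT5* stood. Both lie above the threshold of 0.05, so no gene could have passed, and no conclusion is drawn from this test. In strain XIV of the disomes-*ubp6Δ* all duplicated genes averaged 0.59, the lowest of the set.

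**Figure D5:**
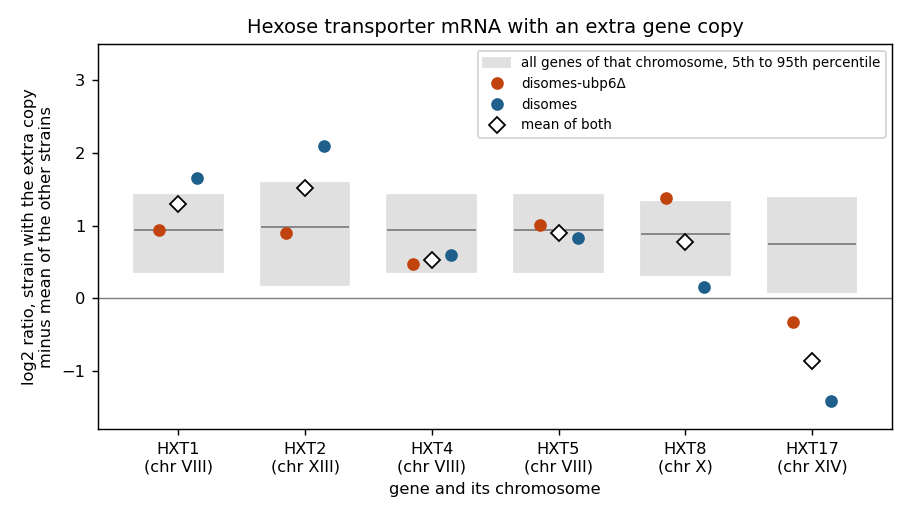
Response to an extra gene copy, as the log2 ratio in the strain that carries the extra chromosome minus the mean of the other strains, for the 6 members on duplicated chromosomes, with disomes-*ubp6Δ* at left, disomes at right and their mean as an open diamond. Grey bands span the 5th to 95th percentile of all genes of that chromosome with the median as a line; *HXT17* lies below its band, at a mean of -0.87 that was -0.12 with normexp, and the other 5 means lie within theirs.

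The genes that control the hexose transporters, and those regulated beside them, were described from 7 lists. These were written from general knowledge but with earlier results of these data known, so calls among their genes are not independent of that choice. Their test was limma on the mean of each pair, in which the strain lies in opposite dyes and a dye effect cancels, at an adjusted p of 0.05 over 5771 genes. This called 13.9% of all genes higher and 24.2% lower, a split of 802 and 1394 that became 1074 and 977 when arrays were centred on genes outside the extra chromosome. Of the 10 genes for glucose sensing and Rgt1 repression, 1 was higher and 4 were lower. With the slide as a random block, which called 7.75% of all genes higher and 13.9% lower, 1 was higher and 2 were lower, and *CYC8* and *YCK1* lost their calls. *STD1*, a corepressor partner of Rgt1, rose by 0.34 (SE 0.06, adjusted p = 0.000735) and was higher in 11 of 11 pairs, whereas *YCK2*, a casein kinase of the sensor pathway, had -0.41 (SE 0.08, adjusted p = 0.00158) and *GRR1*, the F-box protein that marks Mth1 and Std1 for degradation, had -0.23 (SE 0.05, adjusted p = 0.00216). *CYC8*, a general corepressor, had -0.17.

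Of 16 genes for the Snf1 kinase and Mig1 repression, 2 were higher and 5 lower, and with the slide block 2 were higher and 2 lower, without *ELM1*, *SNF1* and *GAL83*. *GLC7*, the phosphatase that acts on Snf1, stood at 0.48 (SE 0.06, adjusted p = 0.000254) and was higher in 11 of 11 pairs, and *NRG1*, a repressor of glucose-repressed genes, had 0.48 (SE 0.13, adjusted p = 0.0108). *SAK1*, the main kinase that activates Snf1, had -0.48 (SE 0.06, adjusted p = 0.000178) and was lower in 11 of 11 pairs, and *ELM1* and *SNF1* had -0.26 and -0.20. By set, *SAK1* had -0.83 in the disomes-*ubp6Δ* and -0.13 in the disomes.

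Genes of low glucose and nonfermentable carbon are for the most part repressed by ample glucose, as are *HXT2*, *HXT4*, *HXT6* and *HXT7*. Of these members, only *HXT6* and *HXT7* had a mean above the reference, and only in the disomes. A link between the members and the list was not tested. Of 13 list genes tested, 7 were higher and 1 lower in the mean of both sets, with a median of 0.49 against -0.05 over all genes. *ADR1*, an activator of glucose-repressed genes, stood at 1.05 (SE 0.14, adjusted p = 0.000194) and was higher in 12 of 12 pairs. *PCK1*, for the gluconeogenic enzyme phosphoenolpyruvate carboxykinase, had 0.88 (SE 0.13, adjusted p = 0.000362), and *ADH2*, for the alcohol dehydrogenase that consumes ethanol, had 0.76 (SE 0.26, adjusted p = 0.0363). *GUT1*, the glycerol kinase gene, was the 1 that fell, at -0.30 (SE 0.10, adjusted p = 0.0262), with 0.06 in the disomes-*ubp6Δ* and -0.67 in the disomes. Within the sets, 7 of 15 were higher and 0 lower in the disomes-*ubp6Δ* (13.9% and 21.2% of all genes), with 8 higher and 0 lower by limma at an unadjusted p under 0.05. In the disomes, 5 of 13 were higher and 1 lower (14.8% and 24.6%). In the difference between the sets, 1 of 13 was higher and 1 lower (16.2% and 18.0%). With the slide block, 4 were higher in the mean of both sets (*ADR1*, *HAP4*, *JEN1* and *PCK1*; 7.75% of all genes), 2 in the disomes-*ubp6Δ* (*ADR1* and *PCK1*; 3.73%) and 0 in the disomes (1.40%), where limma with the block gave 4 higher at an unadjusted p under 0.05. *ADR1* had 0.96 in the disomes-*ubp6Δ* and 1.13 in the disomes, and *PCK1* had 0.80 and 0.96.

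The remaining lists had calls in both directions or few calls in the mean of both sets. Of 13 genes for cAMP and protein kinase A, 2 were higher, *RIM15* at 0.49 and *TPK2* at 0.23, and 2 were lower, *RAS2* at -0.32 and *RAS1* at -0.29. Of 11 genes for ubiquitination and endocytosis of transporters, 2 were higher, *RSP5* at 0.43, which encodes the ligase that ubiquitinates plasma membrane transporters, and *UBP6* itself at 0.65 (1.60 in the disomes-*ubp6Δ*, where strain and reference signals are both low, and -0.31 in the disomes), and 2 were lower, *END3* at -0.31 and *DOA4* at -0.22. Of 4 hexose phosphorylation genes, *EMI2* was lower at -0.23, and of 7 other sugar transporters *MAL31*, a maltose permease gene, was higher at 0.18. With the slide as a random block, 14 of the 23 list genes named passed the test in the mean of both sets, *ADR1*, *PCK1*, *STD1*, *GLC7* and *SAK1* among them, and *ADH2*, *GUT1*, *RIM15*, *RSP5*, *CYC8*, *ELM1*, *SNF1*, *EMI2* and *MAL31* did not, at adjusted p of 0.0537 to 0.159. Under the 18 other alternatives, 10 of the 23 passed throughout. Of those that held with the block, *GRR1*, *END3* and *RAS1* did not pass with duplicated chromosomes kept (adjusted p = 0.209, 0.146 and 0.0876), nor *DOA4* and *UBP6* with normexp (adjusted p = 0.065 and 0.056).

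Outside the sugar transporter family, the genes whose log2 ratios ran most like those of *HXT7* were ranked by the lower of the Pearson correlations in the 2 sets, over 5556 genes measured on at least 20 arrays. *PSK1*, for a kinase that controls sugar partitioning, came first with 0.75 in the disomes-*ubp6Δ* and 0.82 in the disomes (n = 11 each). *MRPL17*, for a mitochondrial ribosomal protein, had 0.75 and 0.82, and *ALD6*, for cytosolic acetaldehyde dehydrogenase, had 0.78 and 0.74. *YDL023C*, *YPR126C*, *YKL169C*, *YOR121C*, *RTC3*, *YMR141C* and *YPR099C* followed, with the lower correlation at 0.73 to 0.67. Ranked by Spearman's rho, 6 of the 10 genes remained among the 10 highest. All these values share the arrays and slides of *HXT7*, and only 2.05% of genes had a lower correlation above 0.5. None of the 10 had a mean log2 ratio near that of *HXT7* in the disomes, and the highest was *RTC3*, at 0.35 in the disomes-*ubp6Δ* and 1.11 in the disomes.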

How the data were processed

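RNA of 24 strains was compared with reference RNA on 24 dual-colour arrays with 13048 features each. The authors processed the scans in Agilent Feature Extraction at its defaults. The deposited intensity values are raw signals and background-subtracted, dye-normalized processed signals. Per spot, the deposited log10 ratio sets processed Cy5 over Cy3. The authors' deposited value table follows these on a log2 scale (median -0.04 to 0.01 per array) and served as an alternative. The deposited flags (other values) mark outlier, saturated and background spots.

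A factor of 3.32 took log10 ratios to log2. Control spots, outliers and spots that rose well over background in no channel were dropped, and the rest averaged per probe, then per gene. On the *ubp6Δ* arrays the sign was reversed. Values of a gene in the strain that carries its extra copy were left out. Gene names came from RefSeq (R64), which matched 5718 of 6176 open reading frames and did not match 458. No spot of a member was saturated. The precision is limited by the number of arrays, 1 per strain. All genes with at least 6 strains were tested with limma 3.58.1 (R 4.3.3), within each set, on the mean of each pair and on the difference within pairs of the same duplicated chromosome, with an adjusted p of 0.05. The limma test against 0 was tried on simulated data with independent arrays. Slide effects were not part of that trial, so it does not cover them. Nothing says that strains were cultured more than once, so p-values measure the spread between strains. Pairs rest on the duplicated chromosome given in the labels; deviations from the set means correlated at -0.05 to 0.64 for the same chromosome, above 0.1 in 11 of 12, against a median of -0.04 for different chromosomes.

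The members and gene lists were chosen with earlier results of these data known. All members were named. Of each list, up to 3 highest and 3 lowest genes past the test in the mean of both sets were named, and the 10 genes most like *HXT7*. Alternatives were normexp (offset 50) with loess, no filter, outlier spots kept, centred arrays, the value table, duplicated chromosomes kept, slide as a block, each strain left out and unpaired sets. The block for the mean of both sets was chosen after seeing the data.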

Additional observations from a re-analysis of the deposited data

Results flagged for a closer look

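Among the list genes named, 6 differed between the sets by limma on the difference of each pair (disomes-*ubp6Δ* minus disomes), a comparison in which 34.2% of all genes were called, while dye and reference RNA differ between the sets too and cannot be told apart from it. *UBP6* differed by 1.91 (SE 0.23, adjusted p = 7.47e-05), with 1.60 in the disomes-*ubp6Δ* and -0.31 in the disomes, each relative to its own reference. The 1.60 is a ratio of low signals, 24.2 to 268 in the strains, which lack the gene, and 12.9 to 65.1 in their reference. *SAK1* differed by -0.70 (SE 0.09, adjusted p = 0.000173), lower in 11 of 11 pairs, with -0.83 and -0.13. *GUT1* differed by 0.73 (SE 0.11, adjusted p = 0.000499), higher in 11 of 11 pairs, with 0.06 and -0.67. *RAS1* differed by -0.41 (SE 0.08, adjusted p = 0.00155), lower in 11 of 11 pairs, with -0.50 and -0.09. *EMI2*, a glucokinase-like gene, differed by 0.38 (SE 0.12, adjusted p = 0.0307), higher in 8 of 12 pairs, with -0.04 and -0.42. *RSP5* differed by -0.63 (SE 0.20, adjusted p = 0.0262), lower in 10 of 11 pairs, with 0.11 and 0.74. With the pair of slides as a block, *UBP6*, *SAK1*, *GUT1* and *RAS1* passed the test and *EMI2* and *RSP5* did not (adjusted p = 0.174 and 0.106). Over the other 19 alternatives *EMI2* had adjusted p of 0.0119 to 0.0752 and *RSP5* of 0.00818 to 0.0815.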

How the results depend on the processing

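The counts of genes called were 2106 in the disomes-*ubp6Δ*, 2303 in the disomes, 2196 in the mean of both sets and 1974 in the difference between them. With the slide as a random block they were 579, 334, 1248 and 737, with correlations within slides of 0.185, 0.355, 0.247 and 0.347, and with duplicated chromosomes kept they were 1366, 1528, 1058 and 2041. Leaving out each strain gave 1850 to 2177, 1936 to 2497, 1904 to 2339 and 1629 to 2072. Centring each array turned the split of higher and lower calls to 1049 and 922 in the disomes-*ubp6Δ*, against 832 and 1274, and to 1113 and 1135 in the disomes, against 864 and 1439. In the analysis of the difference without the replicate block, which ignores the pairing, 1458 genes were called. Of 340 alternative values of the members' mean ratios, 339 lay within 1 SD of the value given, and the exception was *HXT17* in the disomes, at 0.49 with normexp. Most of these values leave out a single strain, which can move a mean by only a small part of the SD. The count therefore says little about how stable the means are. Among the changes of processing, the next largest shift was 0.46, for *HXT8* in the disomes-*ubp6Δ*. The sign of a mean changed for *HXT3* and *HXT1* as described and for *HXT2* in the disomes-*ubp6Δ*, whose mean was 0.07 at the highest, when II or XVI was left out. The response of *HXT5*, *HXT8* and *HXT17* to an extra copy was 0.40, 0.40 and -0.12 with normexp, against 0.91, 0.77 and -0.87. No response changed direction under the alternatives tried. The cause of these shifts was not tested. Dim signals limit *HXT5*, *HXT8*, *HXT10* and *HXT17*.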

Other observations

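Probes for 6 other genes of the family were present, *HXT9*, *HXT11*, *HXT13*, *HXT14*, *HXT15* and *HXT16*. *HXT9*, which is linked to drug resistance, was above background in strain and reference on all arrays and had a mean log2 ratio of 0.33 ± 0.56 in the disomes-*ubp6Δ* and 0.21 ± 0.49 in the disomes (SD, n = 11 each). *HXT15* was measured in 8 disomes-*ubp6Δ*, with -0.05 to 2.16, and in 3 disomes, with -0.37 to 3.01. *HXT16* was measured in 7 disomes-*ubp6Δ*, with -0.39 to 0.39, and in 4 disomes, with -0.16 to 2.80. *HXT11*, *HXT13* and *HXT14* were measured in 1, 1 and 2 disomes-*ubp6Δ* and in 3, 3 and 1 disomes. *HXT13* is close in sequence to *HXT17*, and *HXT15* to *HXT16*, so their probes may read more than a single transcript.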
